A study of Saccharomyces cerevisiae with 12 samples.

Results

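The cytosolic ribosomal protein genes of the budding yeast Saccharomyces cerevisiae were taken as all genes named RPL or RPS followed by a digit, with RPP0, RPP1A, RPP1B, RPP2A and RPP2B, and without RPS28A and RPS28B. Of the 5970 transcripts in the deposited tables, 135 were such genes: 76 encode proteins of the large subunit (RPL), 54 proteins of the small subunit (RPS) and 5 the stalk of the large subunit (RPP). RNA sequencing had been done on 12 libraries in 6 groups of 2. The mutant, edc3∆lsm4∆C, lacks EDC3 and the Q/N-rich C-terminal domain of Lsm4p, both of which help assemble P-bodies, and the wild type (WT) is the laboratory strain BY4741. The groups were the mutant grown with 100 mM sodium perchlorate (NaClO4), the untreated mutant, WT grown with 100 mM NaClO4, untreated WT, WT regrown after a shock wave of 5.6 Mach, and unshocked WT. All cells grew at 30 °C in medium without uracil and were harvested at an OD600 of 0.4 to 0.5, and the salt was present throughout growth. The labels do not say that the replicates were separate cultures, so the tests weigh each difference only against the spread of these libraries, which could be technical. The mutant and WT libraries differed in more than the named mutations. EDC3 had 1 to 4 reads in the mutant libraries and 745 to 1365 in the WT ones, LEU2 5366 to 6398 and 0 to 23, and the alpha-factor gene MF(ALPHA)1 6140 to 22817 and 4 to 111. STE2, the alpha-factor receptor gene of a cells, had 40 to 67 reads in the mutant libraries and 3586 to 14929 in the WT ones, so effects of auxotrophic markers and mating type cannot be told apart from those of edc3∆lsm4∆C.

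A ribosome joins a small subunit, which reads the mRNA, to a large subunit, which forms the peptide bond, and most ribosomal proteins bind ribosomal RNA at a set place in one of them. In yeast an ancient duplication of the genome left most ribosomal proteins with a pair of genes, named A and B, whose proteins are mostly identical or nearly so. Transcription of the family is driven mainly by Rap1 with Fhl1 and Ifh1 and can be held down by the corepressor Crf1. It follows growth through the TOR and protein kinase A pathways. It is known to drop in many stresses and to rise when growth resumes. Whether Crf1 acted on these genes here was not tested.

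By sequence the family stood apart from other genes. In the RefSeq annotation of the R64 assembly, 89 of the 135 genes (65.93%) had an intron in the coding sequence, against 4.597% of all 5960 transcripts with a coding sequence. Their median coding length was 435 bases, against 1188 over all, and lysine and arginine made up a median of 20.29% of their residues, against 11.84%. Of the 135 genes, 116 formed 58 A/B pairs and 19 were single-copy, among them RPL3, RPL5, RPL10, RPP0 and RPS3. The proteins of 22 pairs were identical, and the coding sequences of a pair were 74.88 to 99.39% identical with a median of 93.27%. In 41 pairs with coding sequences of at least 100 bases no stretch of 100 coding bases was shared. In 6 pairs, among them RPL1, RPL4, RPL11, RPL35 and RPS6, more than 50% of such stretches were shared, and values of single genes of these pairs are uncertain because the authors' counting could split their reads. The same holds for RPL41A and RPL41B, whose coding sequences of 78 bases are shorter than such a stretch and 98.72% identical.

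The libraries held 14110933 to 18363356 reads, and the 135 transcripts took 12.3 to 19.3% of them. In percent of all reads the family held 12.3 and 13.8% in the NaClO4-grown mutant, against 16.4 and 17.6% in the untreated mutant. It held 13.5 and 15.4% in NaClO4-grown WT, against 18.6 and 19.3% in untreated WT. After the shock it held 18.4 and 18.7%, against 14.5 and 12.8% in unshocked WT. In each of these 3 comparisons the groups did not overlap, with the family lower in salt and higher after shock. The unshocked WT libraries also lay below the untreated WT ones, although neither group had been treated, so a level compared across the salt and shock experiments includes that difference, and tests were kept within each table.

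**Figure D1:**
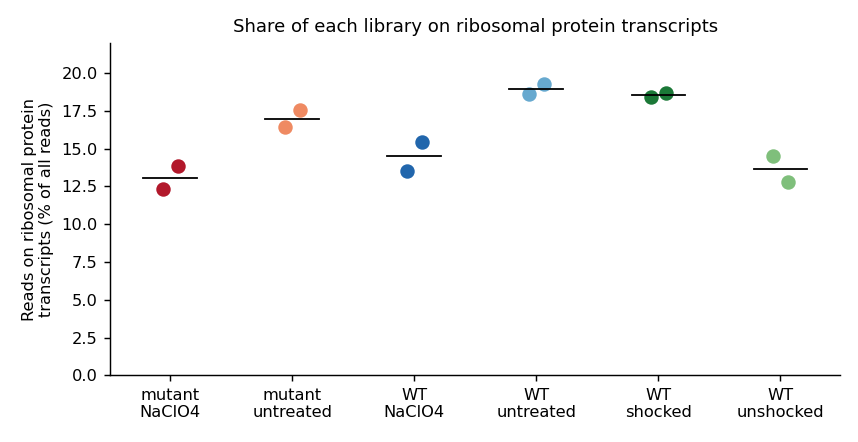
Percent of all reads of a library on the 135 ribosomal protein transcripts (vertical axis), with 1 point per library and a line at the mean of each group of 2. The NaClO4-grown groups lie at 12.3 to 15.4%, below the untreated groups of the same genotype at 16.4 to 19.3%, and shocked WT lies at 18.4 and 18.7%, above unshocked WT at 14.5 and 12.8%.

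Levels were compared between genes as RPKM, that is, reads per kb of coding sequence scaled to the reads of the library. On this scale 118 of the 135 genes were among the 200 most abundant transcripts, with a median rank of 105. RPL41A and RPL41B (both uncertain), which encode the smallest ribosomal protein, led the family with means over 12 libraries of 14471 and 8365, although coding sequences this short (78 bases) make a level per kb imprecise. They were followed by the single-copy genes RPS31, an RPS fused to ubiquitin, at 6335 and RPS20 at 6056. At the other end RPL15B had a mean of 60.3 (range 42.7 to 80.9) and had rank 2207 of all transcripts, while RPL22B followed at 235, RPL7B at 279.6 and RPS9A at 303. The highest and lowest members thus differed 240-fold.

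The A gene was the more abundant one in 34 pairs and the B gene in 24, and the order was the same in all 12 libraries for 52 of 58 pairs. The more abundant gene exceeded the other by a median of 1.76-fold, by less than 1.5-fold in 22 pairs and by more than 5-fold in 6. RPL15A/RPL15B, which encode eL15 of the large subunit, were the most unequal, with RPL15A 51.7-fold above RPL15B. RPL22A exceeded RPL22B 10.4-fold, RPS14A exceeded RPS14B 9.60-fold, RPS9B exceeded RPS9A 9.49-fold and RPL7A exceeded RPL7B 7.76-fold. For RPL22 and RPS14 the protein is known to bind the pre-mRNA of its own less abundant gene and to hold back its splicing. At the balanced end stood RPS23A/RPS23B (1.01-fold), RPS18A/RPS18B (1.03-fold), RPP2A/RPP2B (1.10-fold), RPL40A/RPL40B (1.15-fold) and RPL42A/RPL42B (1.16-fold).

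**Figure D2:**
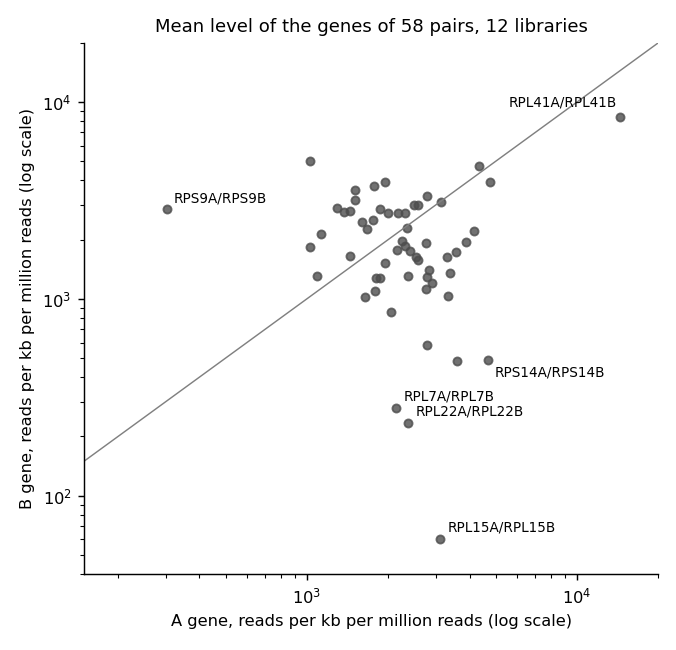
Mean level of the A gene (horizontal axis) against that of the B gene (vertical axis) of 58 pairs, in RPKM over 12 libraries, both on a log scale, with 1 point per pair and a line where both are equal. Most pairs lie near the line, and RPL15A/RPL15B lies farthest from it, at 3117 against 60.3.

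The coding sequences below show how far reads can tell the genes of 3 pairs apart, and capitals mark the bases that differ within a pair. RPL15A (YLR029C, chrXII:201976-202590, minus strand) and RPL15B (YMR121C, chrXIII:509734-510348, minus strand) differ at 42 of 615 coding bases, and RPL9A (YGL147C, chrVII:227754-228329, minus strand) and RPL9B (YNL067W, chrXIV:499681-500256, plus strand) at 36 of 576. RPL1A (YPL220W, chrXVI:135790-136443, plus strand) and RPL1B (YGL135W, chrVII:254641-255294, plus strand) differ at only 4 of 654, so most reads of this pair match both genes. All 6 genes are uninterrupted by introns. The windows are coding bases 555 to 614 of RPL15, 514 to 573 of RPL9 and 1 to 60 of RPL1, from the RefSeq R64 assembly, and each holds the largest number of differing bases that 60 bases of its pair can hold.
RPL15A: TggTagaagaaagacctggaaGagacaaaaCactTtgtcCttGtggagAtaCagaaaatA
RPL15B: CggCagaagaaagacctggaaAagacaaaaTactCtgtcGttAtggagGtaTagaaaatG
RPL9A: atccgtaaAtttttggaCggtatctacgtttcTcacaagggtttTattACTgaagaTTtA
RPL9B: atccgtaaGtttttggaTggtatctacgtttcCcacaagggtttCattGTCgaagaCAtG
RPL1A: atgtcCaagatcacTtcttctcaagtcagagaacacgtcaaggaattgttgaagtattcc
RPL1B: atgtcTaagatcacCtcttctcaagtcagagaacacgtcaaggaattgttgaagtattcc

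Bases 330 to 231 before the start codon are given for 4 pairs whose genes moved apart in these data (RefSeq R64, 5′ to 3′ on the strand of the gene). How alike the genes of a pair are upstream was not measured. Capitals mark matches to the letters of the Rap1 motif ACCCNNACA or the Abf1 motif (CGT and TGA with 6 bases between them) on either strand. The stretches are chrVII:228560-228659, minus strand for RPL9A, chrXIV:499351-499450, plus strand for RPL9B, chrXII:202821-202920, minus strand for RPL15A, chrXIII:510579-510678, minus strand for RPL15B, chrXVI:135460-135559, plus strand for RPL1A, chrVII:254311-254410, plus strand for RPL1B, chrXII:262864-262963, plus strand for RPL22A and chrVI:65163-65262, minus strand for RPL22B.
RPL9A: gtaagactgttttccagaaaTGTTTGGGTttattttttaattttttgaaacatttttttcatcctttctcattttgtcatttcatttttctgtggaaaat
RPL9B: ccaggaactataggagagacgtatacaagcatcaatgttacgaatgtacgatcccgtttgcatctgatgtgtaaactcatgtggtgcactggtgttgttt
RPL15A: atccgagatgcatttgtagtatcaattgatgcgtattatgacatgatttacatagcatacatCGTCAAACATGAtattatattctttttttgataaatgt
RPL15B: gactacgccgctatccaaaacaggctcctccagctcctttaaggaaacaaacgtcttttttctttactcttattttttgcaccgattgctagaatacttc
RPL1A: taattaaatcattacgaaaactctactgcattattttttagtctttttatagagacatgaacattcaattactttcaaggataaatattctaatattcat
RPL1B: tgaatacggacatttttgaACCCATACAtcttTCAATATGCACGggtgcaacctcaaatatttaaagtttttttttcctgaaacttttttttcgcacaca
RPL22A: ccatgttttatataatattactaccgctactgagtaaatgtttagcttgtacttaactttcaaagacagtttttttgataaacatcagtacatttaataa
RPL22B: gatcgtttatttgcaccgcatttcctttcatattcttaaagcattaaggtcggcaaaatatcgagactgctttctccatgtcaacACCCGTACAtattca

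In these stretches RPL9A held a Rap1 match 310 to 302 bases before the start codon and RPL9B held none. RPL1B held a Rap1 and an Abf1 match, which do not overlap, RPL15A an Abf1 match and RPL22B a Rap1 match, while RPL1A, RPL15B and RPL22A held neither. Over the 500 bases before the start codon, 54 of the 135 genes (40%) held the Rap1 letters, against 5.48% of 5949 genes. The Abf1 letters were in 16.3% of the family against 22.7% over all, those of the Reb1 motif TTACCCG in 5.19% against 10.2%, and the stress element AGGGG in 27.4% against 34.3%. The motifs of ribosome biogenesis genes were in 12.6% against 12.5% for AAAATTTT (RRPE) and in 22.2% against 28% for GATGAG (PAC). The Rap1 letters were in 25 of the 58 less abundant genes of a pair. A match is a description of these letters and not a binding site.

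In NaClO4-grown WT the ribosomal protein transcripts were lower together, and the balance within some pairs was shifted. By limma with Benjamini-Hochberg adjustment over all transcripts, 88 of the 135 genes fell in NaClO4-grown WT relative to untreated WT, where 12.1% of all transcripts tested fell, 1 gene (RPL15B) rose, where 14.3% of all rose, and 46 did not pass. The median log2 fold change of the family was -0.51, against 0.00 over all transcripts tested. Both NaClO4-grown WT libraries lay below both untreated WT libraries for 129 of the 135 genes, a pattern that 34.2% of all transcripts showed, and above them for 1 gene (RPL15B), against 33.7% of all. With values scaled by library totals, which moved the median of all transcripts to 0.13, the family's median was -0.38 and 73 members fell, where 6.65% of all transcripts did. Of the large-subunit genes 47 of 76 fell (median -0.50), of the small-subunit genes 40 of 54 (median -0.55) and of the single-copy genes 13 of 19 (median -0.53).

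RPL18B, which encodes a protein of the large subunit, had 2468 and 3152 normalized reads in NaClO4-grown WT, compared with 5645 and 5923 for untreated WT. Both NaClO4-grown libraries lay far below both untreated ones, and the log2 change was -1.05 ± 0.15 (SE, adjusted p = 0.00107), the largest fall of the family. RPL9A, which encodes uL6 near the factor-binding site, had 10246 and 11936 normalized reads in NaClO4-grown WT, compared with 20577 and 23344 for untreated WT, a change of -0.99 ± 0.14 (SE, adjusted p = 0.00121). RPS26B, which encodes eS26 at the mRNA exit channel, had 6497 and 7648 normalized reads in NaClO4-grown WT, compared with 12765 and 12831 for untreated WT, a change of -0.86 ± 0.14 (SE, adjusted p = 0.00204). For both genes the 2 salt-grown libraries lay below the 2 untreated ones without overlap. RPL14A at -0.72 ± 0.17 (adjusted p = 0.0128) and RPL40B, a fusion of ubiquitin with eL40, at -0.70 ± 0.14 (adjusted p = 0.00598) were the next falls. Of the stalk genes, whose proteins draw translation GTPases to the ribosome, RPP0 fell, at -0.53 ± 0.15 (adjusted p = 0.0277). RPP1A at -0.30 ± 0.15, RPP1B at -0.48 ± 0.17, RPP2A at -0.36 ± 0.18 and RPP2B at -0.44 ± 0.16 did not pass (adjusted p = 0.0607 to 0.171). How many members were called depended on which library was left out. The family's median was -0.37 without NaClO4-grown WT replicate 1 and -0.65 without replicate 2. It was -0.56 without untreated WT replicate 1 and -0.47 without untreated WT replicate 2.

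Of the members named for WT, the adjusted p of 5 called ones rose past 0.05 when 1 library was left out: without NaClO4-grown WT replicate 1 it was 0.0850 for RPL14A, 0.0677 for RPL15A, 0.207 for RPL15B, 0.110 for RPP0 and 0.155 for RPS22A. Without NaClO4-grown WT replicate 2 the adjusted p was 0.161 for RPL15B. Without untreated WT replicate 1 the adjusted p was 0.0599 for RPP0. Without untreated WT replicate 2 the adjusted p was 0.219 for RPP0 and 0.0502 for RPS22A. Fitted without a variance trend, the adjusted p was 0.0653 for RPS22A/RPS22B and 0.0546 for RPS22A.

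Within pairs, the ratio of the A to the B gene changed in 12 of 58 ribosomal protein pairs in NaClO4-grown WT (adjusted over all 516 paralog pairs of the genome tested, of which 34.1% changed), with 9 ratios lower and 3 higher. The median size of a ratio change was 0.14 on the log2 scale in ribosomal protein pairs and 0.38 over all paralog pairs. RPL15 changed most. RPL15B had 639 and 638 normalized reads in NaClO4-grown WT, compared with 409.9 and 481 for untreated WT, a change of 0.52 ± 0.15 (SE, adjusted p = 0.0282), while RPL15A had 20922 and 24174 normalized reads in NaClO4-grown WT, compared with 33637 and 34144 for untreated WT, a change of -0.59 ± 0.14 (SE, adjusted p = 0.0132). The rare gene was thus higher in both salt-grown libraries and the abundant gene lower, and the share of RPL15B in the pair, per kb, was 2.97 and 2.57% in NaClO4-grown WT, compared with 1.20 and 1.39% in untreated WT. The log2 ratio of RPL15A to RPL15B changed by -1.11 ± 0.14 (SE; adjusted p = 0.00651). RPL9A fell and RPL9B, at -0.08 ± 0.14 (adjusted p = 0.705), did not pass, so the share of RPL9B was 46.2 and 45.6% in NaClO4-grown WT, compared with 31.0 and 31.4% in untreated WT, and the ratio changed by -0.90 ± 0.07 (SE; adjusted p = 0.00251). RPS26B was the member that fell in its pair, with RPS26A at -0.29 ± 0.14 (adjusted p = 0.144), and the ratio changed by 0.57 ± 0.07 (SE; adjusted p = 0.00613). For RPS22A/RPS22B, the genes of uS8, the ratio changed by -0.52 ± 0.13 (SE; adjusted p = 0.0384), where RPS22A fell, at -0.68 ± 0.18 (adjusted p = 0.0232), and RPS22B stood at -0.16 ± 0.15 (adjusted p = 0.460). The shift was towards the less abundant gene in 7 of the 12 pairs and towards the more abundant one in 5. Of all 58 pairs 29 shifted towards the less abundant one. How many of the 516 paralog pairs of the genome did so was not counted. Without either NaClO4-grown WT replicate 0 pairs were called by limma, with 7 pairs at an unadjusted p under 0.05 without replicate 1 and 12 without replicate 2, and the adjusted p of the RPL9A/RPL9B ratio was 0.0549 and 0.0527, that of RPL15A/RPL15B 0.0877 and 0.0670, that of RPS26A/RPS26B 0.0784 and 0.0723, and that of RPS22A/RPS22B 0.230 and 0.155.

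Genes that work around the ribosome moved with the family in part. In NaClO4-grown WT 12.1% of all transcripts fell and 14.3% rose. Elongation factors, escorts and ribosome-associated factors fell more often than that, and the regulators did not. Of 19 regulators 1 rose and 2 fell in NaClO4-grown WT: CRF1, the corepressor of ribosomal protein genes, had 433 and 430.4 normalized reads in NaClO4-grown WT, against 90.3 and 65.0 in untreated WT, a change of 2.48 ± 0.20 (adjusted p = 2.49e-05), while RAP1 was at -0.60 ± 0.13 log2 and RAS1, a GTPase gene of the protein kinase A pathway, at -0.76 ± 0.14. Of 11 elongation factor genes 5 fell, among them TEF4 of the eEF1B complex at -0.77 ± 0.14 and ANB1, an eIF5A gene, at -1.18 ± 0.29, and 1 rose, HEF3, a rarely used eEF3 gene, at 1.59 ± 0.17. Of 10 chaperones and escorts of ribosomal proteins 5 fell, including TSR2, the escort of eS26, at -0.71 ± 0.17, SYO1, which carries uL18 and uL5 to the nucleus, at -0.54 ± 0.15 and the importin KAP123 at -0.51 ± 0.14. Of 12 ribosome-associated chaperones and factors 7 fell, including the Hsp70 gene SSB1 at -0.83 ± 0.16, which shares reads with SSB2 and is uncertain, ASC1 at -0.57 ± 0.16 and NAT5 of the N-terminal acetyltransferase at -0.54 ± 0.15. Of these named genes several lost their call without 1 library, and the adjusted p is given for each: without NaClO4-grown WT replicate 1 it was 0.0616 for RAS1, 0.0734 for RAP1, 0.100 for ANB1, 0.110 for TSR2, 0.262 for SYO1, 0.161 for KAP123, 0.130 for ASC1 and 0.274 for NAT5. Without NaClO4-grown WT replicate 2 the adjusted p was 0.0961 for RAP1, 0.0686 for ANB1, 0.0558 for TSR2, 0.0515 for SYO1, 0.0624 for KAP123 and 0.0532 for NAT5. Without untreated WT replicate 2 the adjusted p was 0.0965 for KAP123 and 0.208 for ASC1. Scaled by library totals, the adjusted p was 0.0647 for SYO1, 0.0584 for KAP123 and 0.0644 for NAT5. Without limma's variance trend, the adjusted p was 0.0532 for KAP123 and 0.0551 for ASC1.

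The family was lower in salt in the mutant too. In it 117 of the 135 genes fell in the NaClO4-grown relative to the untreated mutant, where 15.7% of all transcripts tested fell and 18% rose, and 18 did not pass. The median log2 fold change was -0.46, against 0.00 over all transcripts. For 129 genes both salt-grown libraries lay below both untreated ones, against 35.3% of all transcripts, and for 1 (RPL15B) above them, against 34.6%. All 19 single-copy genes fell, with 66 of 76 large-subunit genes and 48 of 54 small-subunit genes. RPS26B changed most, with 6382 and 7388 normalized reads in the NaClO4-grown mutant, compared with 11834 and 12094 for the untreated mutant, a log2 change of -0.80 ± 0.10 (SE, adjusted p = 4.85e-04). The salt-grown libraries were well below the untreated ones, without overlap. RPL9A had 9433 and 10749.8 normalized reads in the NaClO4-grown mutant, compared with 15586 and 16919.6 for the untreated mutant, a change of -0.69 ± 0.11 (SE, adjusted p = 0.00140). RPS22A at -0.68 ± 0.13 (adjusted p = 0.00411), RPL2B, which encodes uL2 beside the peptidyl transferase centre, at -0.68 ± 0.13 (adjusted p = 0.00521) and RPL16A, which encodes uL13, at -0.65 ± 0.12 (adjusted p = 0.00327) were also among the 5 largest falls. Of the stalk genes RPP0 fell, at -0.57 ± 0.12 (adjusted p = 0.00836), RPP1B, at -0.45 ± 0.14 (adjusted p = 0.0344) and RPP2B, at -0.44 ± 0.14 (adjusted p = 0.0374), while RPP1A at -0.29 ± 0.13 (adjusted p = 0.114) and RPP2A at -0.31 ± 0.14 (adjusted p = 0.112) did not pass. How many members were called depended on which library was left out. The family's median was -0.33 without NaClO4-grown mutant replicate 1 and -0.58 without replicate 2. It was -0.50 without untreated mutant replicate 1 and -0.41 without untreated mutant replicate 2. The adjusted p of both smaller stalk genes that fell passed 0.05 when 1 library was left out: without the NaClO4-grown mutant replicate 1 it was 0.0843 for RPP1B and 0.0837 for RPP2B. Without the untreated mutant replicate 2 the adjusted p was 0.0596 for RPP1B and 0.0783 for RPP2B. In limma without a variance trend, the adjusted p was 0.0795 for RPP1B and 0.0812 for RPP2B.

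The A to B ratio changed in 18 of 58 ribosomal protein pairs of the NaClO4-grown mutant, where 49.6% of 508 paralog pairs of the genome changed, with 8 ratios higher and 10 lower. RPL15 led here too: RPL15B had 536 and 559 normalized reads in the NaClO4-grown mutant, compared with 433 and 456 for the untreated mutant, a change of 0.30 ± 0.10 (adjusted p = 0.0516) that did not pass, and RPL15A had 19322 and 21832 normalized reads in the NaClO4-grown mutant, compared with 29682 and 32899 for the untreated mutant, a fall of 0.61 ± 0.11. The share of RPL15B was 2.70 and 2.50% in the NaClO4-grown mutant, compared with 1.44 and 1.37% in the untreated mutant, and the ratio changed by -0.91 ± 0.08 (SE; adjusted p = 0.00103). For RPS9, the genes of uS4 of the small subunit, RPS9B fell, at -0.57 ± 0.12 (adjusted p = 0.00557) while RPS9A stood at 0.07 ± 0.12 (adjusted p = 0.653), so the share of RPS9A was 16.2 and 14.8% in the NaClO4-grown mutant, compared with 9.95 and 11.0% in the untreated mutant, and the ratio changed by 0.65 ± 0.09 (SE; adjusted p = 0.00364). The ratios of RPS22A/RPS22B (-0.49 ± 0.06), RPL9A/RPL9B (-0.48 ± 0.05) and RPS26A/RPS26B (0.48 ± 0.05) changed as well, with RPS22B at -0.20 ± 0.12, RPL9B at -0.21 ± 0.10 and RPS26A at -0.32 ± 0.12, none of which passed as a single gene. The count of called pairs was 7 without NaClO4-grown mutant replicate 1 and 9 without replicate 2, and all 5 pairs named here were called in each. Of 19 regulators 2 rose and 3 fell (RAP1, RAS1 and SCH9), with CRF1 at 2.29 ± 0.16 (adjusted p = 1.11e-05), RAS1 at -0.59 ± 0.10, RAP1 at -0.37 ± 0.09 and the protein kinase A gene TPK3 as the other riser at 0.31 ± 0.10. Of 11 elongation factor genes 7 fell, among them TEF4 at -0.53 ± 0.11 and EFT2, the eEF2 gene, at -0.51 ± 0.10, which is uncertain because EFT1 is nearly identical, and 1 rose, HEF3, at 0.62 ± 0.12. Of the chaperones and escorts 1 of 10 fell, KAP123 at -0.32 ± 0.09, and of the ribosome-associated factors 8 of 12, with SSB1 (uncertain) at -0.61 ± 0.11, ASC1 at -0.60 ± 0.13 and STM1, which clamps idle ribosomes, at -0.41 ± 0.10. Of all transcripts 15.7% fell and 18% rose, so the regulators and escorts fell about as often as transcripts in general or less. KAP123 and STM1 lost their calls without 1 library, as the adjusted p shows: without the untreated mutant replicate 1 it was 0.0555 for KAP123 and 0.0517 for STM1. Without the untreated mutant replicate 2 the adjusted p was 0.0954 for KAP123 and 0.0598 for STM1. On a scale of library totals, the adjusted p was 0.0668 for RAP1 and 0.0999 for KAP123.

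An interaction term over the 8 salt and untreated libraries asked whether the mutant and WT responded to NaClO4 by different amounts. Limma called 0 of the 135 genes, where 1.86% of all transcripts had a higher and 0.668% a lower response in the mutant, and so did edgeR and DESeq2 on the recovered reads, and 1 gene had an unadjusted p under 0.05 with each tool. That gene was RPL18B in limma, which stood at -0.61 log2 in the mutant and -1.05 in WT, a difference of 0.45 ± 0.17 (adjusted p = 0.291). The median difference over the family was 0.05, and without 1 library it lay between -0.09 (without NaClO4-grown WT replicate 1) and 0.19 (without NaClO4-grown WT replicate 2). The stalk genes differed by -0.04 ± 0.19 for RPP0, 0.01 ± 0.21 for RPP1A, 0.03 ± 0.26 for RPP1B, 0.05 ± 0.26 for RPP2A and 0.00 ± 0.22 for RPP2B, each within its SE (adjusted p = 0.960 to 0.9999). Among pairs the RPL9A/RPL9B ratio was the 1 of 58 called (background 4.06% of 517 pairs). It changed by -0.48 in the mutant and by -0.90 in WT, a difference of 0.43 ± 0.08 (limma, adjusted p = 0.0367), with RPL9A at 0.30 ± 0.17 and RPL9B at -0.13 ± 0.16 as single genes. In percent of the pair RPL9B reached 51.1 and 49.8% in the NaClO4-grown mutant, 42.2 and 42.3% in the untreated mutant, 46.2 and 45.6% in NaClO4-grown WT and 31.0 and 31.4% in untreated WT. The untreated mutant already had a higher share of RPL9B than untreated WT. The call was lost when any 1 of 7 of the 8 libraries was left out, with an adjusted p of 0.0524 to 0.176, and was kept without untreated WT replicate 1 (adjusted p = 0.0339). Of the 4 gene lists only HEF3 passed, at -0.98 ± 0.20 (adjusted p = 0.0368), and its adjusted p without 1 library was 0.0851 to 0.162 in 6 of 8 cases. When library totals set the scale, the adjusted p was 0.0601 for HEF3. Fitted without a variance trend, the adjusted p was 0.0790 for RPL9A/RPL9B. The smallest p of the other lists belonged to SFP1 (adjusted p = 0.378), SYO1 (0.344) and NAT5 (0.307).

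Between the untreated strains the family was lower in the mutant. Of the 135 genes 68 were lower in the untreated mutant than in untreated WT, where 11.6% of all transcripts tested were lower and 11% higher, and 67 did not pass. The median log2 fold change was -0.33, against 0.01 over all transcripts, and for 124 genes the groups did not overlap with the mutant lower, against 31.8% of all. For 2 genes (RPL7B and RPL22B) the mutant was higher without overlap, against 31.4%. With values scaled by library totals, which moved the median of all transcripts to 0.18, the family's median was -0.16, and 10 members (7.41%) were lower and 2 (1.48%) higher, where 6.62% of all transcripts were lower and 18.8% higher. On that scale the share of members called lower was thus near that of all transcripts. Of the large-subunit genes 38 of 76 were lower, of the small-subunit genes 29 of 54, of the A genes of pairs 36 of 58 and of the B genes 23 of 58. RPL1A, which encodes uL1 of the stalk beside the tRNA exit site, had 8999.8 and 9981 normalized reads in the untreated mutant, compared with 17772 and 22440.4 for untreated WT. Its log2 change was -1.08 ± 0.13 (SE, adjusted p = 0.00244), and both mutant libraries lay far below both WT ones, but the gene is nearly identical to RPL1B and its value is uncertain. RPL9A had 14171 and 15357 normalized reads in the untreated mutant, compared with 20261 and 23222 for untreated WT, a change of -0.56 ± 0.10 (SE, adjusted p = 0.0118), without overlap. RPS0B, which encodes uS2, at -0.53 ± 0.11 (adjusted p = 0.0165), RPS25B, which encodes eS25, at -0.52 ± 0.09 (adjusted p = 0.0103) and RPS1B, which encodes eS1, at -0.48 ± 0.08 (adjusted p = 0.00798) were the other large differences. Of the stalk genes RPP2A was lower, at -0.42 ± 0.12 (adjusted p = 0.0496), and RPP0 at -0.19 ± 0.09, RPP1A at -0.33 ± 0.10, RPP1B at -0.34 ± 0.11 and RPP2B at -0.29 ± 0.09 did not pass (adjusted p = 0.0562 to 0.180). Most of these calls ended without either untreated mutant replicate. The family's median was -0.29 without untreated mutant replicate 1 and -0.37 without replicate 2. It was -0.37 without untreated WT replicate 1 and -0.27 without untreated WT replicate 2. For members named here the adjusted p passed 0.05 as follows: without the untreated mutant replicate 1 it was 0.153 for RPL22A, 0.0865 for RPL7A, 0.0525 for RPL9A, 0.230 for RPP2A, 0.0770 for RPS1B, 0.101 for RPS25B and 0.343 for RPS9B. Without the untreated mutant replicate 2 the adjusted p was 0.0805 for RPL22A, 0.0572 for RPL7A, 0.0656 for RPP2A and 0.0800 for RPS9B. Without untreated WT replicate 2 the adjusted p was 0.0855 for RPP2A. Scaled by library totals, the adjusted p was 0.0577 for RPL22A, 0.130 for RPP2A and 0.134 for RPS9B. Without limma's variance trend, the adjusted p was 0.0507 for RPL22A, 0.110 for RPP2A, 0.0534 for RPS0B and 0.0872 for RPS9B. Without the filter on low values the adjusted p was 0.0540 for RPP2A. With a pseudocount of 0.5 the adjusted p was 0.0503 for RPP2A.

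In 6 of 58 pairs the ratio differed between the untreated strains, where 28.7% of 515 paralog pairs did. In 5 of these 6, and in 33 of all 58 pairs, the mutant leaned towards the less abundant gene. How many of the 515 pairs leaned that way was not counted. For RPL1A/RPL1B the difference was -0.96 ± 0.05 (SE; adjusted p = 0.00116) and is uncertain. The share of RPL1A was 24.3 and 24.6% in the untreated mutant, compared with 38.2 and 38.9% in untreated WT, and RPL1B stood at -0.12 ± 0.12 (adjusted p = 0.524). RPL7A, a gene of uL30, was lower at -0.46 ± 0.08 (adjusted p = 0.00935) and RPL7B stood at 0.32 ± 0.10 (adjusted p = 0.0620), so the share of RPL7B was 13.8 and 14.7% in the untreated mutant, compared with 8.77 and 8.83% in untreated WT, a ratio difference of -0.78 ± 0.08 (SE; adjusted p = 0.00380). RPL22A, which encodes the RNA-binding eL22, was lower at -0.43 ± 0.08 (adjusted p = 0.0141) and RPL22B stood at 0.27 ± 0.12 (adjusted p = 0.153). The share of RPL22B was 10.8 and 11.6% in the untreated mutant, compared with 7.17 and 7.24% in untreated WT, a ratio difference of -0.70 ± 0.10 (SE; adjusted p = 0.0101). The ratios of RPL9A/RPL9B at -0.69 ± 0.06 and RPS9A/RPS9B at 0.62 ± 0.13 differed too, with RPL9B at 0.13 ± 0.11, RPS9A at 0.25 ± 0.15 and RPS9B at -0.37 ± 0.09 as single genes. The count of called pairs was 1 (RPL1A/RPL1B) without either untreated mutant replicate, with an adjusted p of 0.0595 and 0.0623 for RPL7A/RPL7B, 0.0970 and 0.121 for RPL22A/RPL22B, 0.0595 and 0.0569 for RPL9A/RPL9B and 0.126 and 0.176 for RPS9A/RPS9B, and it was 10 without untreated WT replicate 1. Of the 19 regulators 0 passed with limma, edgeR or DESeq2 and 1 had an unadjusted p under 0.05 with each (in limma RAS2, at 0.28 ± 0.11 (adjusted p = 0.112)). Of 11 elongation factor genes 6 were lower and 1 (HYP2, an eIF5A gene) was higher at 0.65 ± 0.12, with its counterpart ANB1 at -2.50 ± 0.36 and, both uncertain because of near-identical copies, EFT1 at -0.69 ± 0.10 and TEF2 at -0.67 ± 0.07. Where 11.6% of all transcripts were lower, 1 of 10 escorts was, KAP123 at -0.43 ± 0.11. Of the ribosome-associated factors 3 of 12 were lower, SSZ1 at -0.48 ± 0.08, SSB2 (uncertain) at -0.45 ± 0.11 and STM1 at -0.39 ± 0.08. These 4 lost their calls when 1 library was left out, as the adjusted p shows: without the untreated mutant replicate 1 it was 0.173 for KAP123, 0.0880 for SSZ1, 0.0888 for SSB2 and 0.150 for STM1. Without the untreated mutant replicate 2 the adjusted p was 0.141 for KAP123, 0.0683 for SSZ1, 0.0614 for SSB2 and 0.141 for STM1. Without untreated WT replicate 2 the adjusted p was 0.0643 for KAP123. On a scale of library totals, the adjusted p was 0.116 for KAP123, 0.0621 for SSB2 and 0.0685 for STM1. In limma without a variance trend, the adjusted p was 0.0519 for RPS9A/RPS9B, 0.0892 for KAP123, 0.0790 for SSB2 and 0.0698 for STM1.

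In NaClO4 the family was also lower in the mutant by its median, and how many members passed depended on the tool and the scaling. Of the 135 genes 15 (11.1%) were lower and 2 (1.48%) higher in the NaClO4-grown mutant than in NaClO4-grown WT, where 15.6% of all transcripts tested were lower and 16.3% higher. DESeq2 called 48 members (35.6%) lower and 2 higher, where it called 15.3% of all transcripts lower and 14.8% higher. The median log2 fold change was -0.31, against -0.01 over all transcripts, and for 79 genes the groups did not overlap with the mutant lower, against 35.2% of all. For 3 genes (RPL7B, RPL22B and RPS9A) the mutant was higher without overlap, against 34.4%. Scaled by library totals, which moved the median of all transcripts to 0.15, the family's median was -0.15, with 2 members lower and 3 higher, where 7.8% of all transcripts were lower and 24.6% higher. The median was -0.16 without NaClO4-grown WT replicate 2, -0.19 without NaClO4-grown mutant replicate 1, -0.44 without NaClO4-grown mutant replicate 2 and -0.45 without NaClO4-grown WT replicate 1. RPL1A (uncertain) had 6259 and 8339 normalized reads in the NaClO4-grown mutant, compared with 12170.5 and 16914 for NaClO4-grown WT, a change of -0.99 ± 0.18 (SE, adjusted p = 0.00367). RPL34A, which encodes eL34, at -0.58 ± 0.12 (adjusted p = 0.00600), RPS0B at -0.50 ± 0.15 (adjusted p = 0.0336), RPL12B, which encodes uL11 at the base of the stalk, at -0.43 ± 0.13 (adjusted p = 0.0396) and RPS4A, which encodes eS4, at -0.43 ± 0.13 (adjusted p = 0.0402) were also lower. The 2 higher members were the less abundant genes of unequal pairs. RPS9A had 3352 and 3502 normalized reads in the NaClO4-grown mutant, compared with 2473 and 2500.1 for NaClO4-grown WT, a change of 0.46 ± 0.09 (SE, adjusted p = 0.00506). RPL22B had 1655 and 1801 normalized reads in the NaClO4-grown mutant, compared with 1271 and 1372 for NaClO4-grown WT, a change of 0.39 ± 0.10 (SE, adjusted p = 0.0168). In both, the mutant libraries lay above the WT ones without overlap. The stalk genes did not pass, at -0.38 to -0.25 log2 (adjusted p = 0.134 to 0.242). How many members were called also depended on which library was left out. The calls of these members ended when 1 library was left out: without the NaClO4-grown mutant replicate 1 the adjusted p was 0.336 for RPL12B, 0.285 for RPL22A, 0.318 for RPL7A, 0.224 for RPS0B and 0.342 for RPS4A. Without the NaClO4-grown mutant replicate 2 the adjusted p was 0.0609 for RPL12B, 0.0605 for RPL22A, 0.123 for RPL22B, 0.127 for RPL7A and 0.111 for RPS4A. Without NaClO4-grown WT replicate 2 the adjusted p was 0.181 for RPL12B, 0.188 for RPL22A, 0.165 for RPL7A, 0.168 for RPS0B and 0.178 for RPS4A. Without NaClO4-grown WT replicate 1 the adjusted p was 0.0835 for RPL22B. When library totals set the scale, the adjusted p was 0.0721 for RPL12B, 0.0996 for RPL22A, 0.0743 for RPL7A, 0.0501 for RPS0B and 0.0606 for RPS4A. Fitted without a variance trend, the adjusted p was 0.0602 for RPL12B, 0.0670 for RPL22A, 0.0574 for RPS0B and 0.0503 for RPS4A.

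The ratio differed in 10 of 58 pairs in NaClO4, where 45.3% of 519 paralog pairs did. In 9 of the 10, and in 38 of all 58 pairs, the mutant leaned towards the less abundant gene. How many of the 519 pairs leaned that way was not counted. The share of RPS9A was 16.2 and 14.8% in the NaClO4-grown mutant, compared with 10.1 and 8.95% in NaClO4-grown WT, a ratio difference of 0.80 ± 0.10 (SE; adjusted p = 0.00140), with RPS9B at -0.34 ± 0.13 (adjusted p = 0.0754). The share of RPL22B was 15.1 and 14.6% in the NaClO4-grown mutant, compared with 9.62 and 8.85% in NaClO4-grown WT, a ratio difference of -0.78 ± 0.08 (SE; adjusted p = 0.00102), with RPL22A at -0.39 ± 0.12 (adjusted p = 0.0392). The ratios of RPL1A/RPL1B (uncertain) at -0.86 ± 0.06 and RPL7A/RPL7B (uncertain in part) at -0.61 ± 0.08 also differed. In these pairs RPL1B stood at -0.13 ± 0.18, RPL7A at -0.40 ± 0.12 and RPL7B at 0.21 ± 0.09, and of these only RPL7A passed. Without NaClO4-grown mutant replicate 1 the count of called pairs was 5. The counts of the gene lists stand beside 15.6% of all transcripts lower and 16.3% higher. Of the regulators 2 of 19 were higher, TPK3 at 0.36 ± 0.10 and RAS2 at 0.34 ± 0.09, and 2 lower, CRF1 at -0.72 ± 0.12 and the kinase gene YAK1, which acts against protein kinase A growth signals, at -0.46 ± 0.09. Of the elongation factor genes 6 of 11 were lower, among them HEF3 at -0.90 ± 0.10, ANB1 at -1.09 ± 0.35 and EFT1 (uncertain) at -0.68 ± 0.11. Of the 10 chaperones and escorts 0 passed with limma, edgeR or DESeq2, with 2, 3 and 1 at an unadjusted p under 0.05, and KAP123 stood at -0.25 ± 0.10 (adjusted p = 0.0737). Of the ribosome-associated factors 1 of 12 was higher, NAT5 at 0.39 ± 0.12, and 2 lower, SSZ1 at -0.38 ± 0.10 and EGD1 of the nascent chain complex at -0.35 ± 0.11. For these genes the adjusted p passed 0.05 when 1 library was left out: without the NaClO4-grown mutant replicate 2 it was 0.0502 for YAK1, 0.144 for NAT5, 0.194 for SSZ1 and 0.0731 for EGD1. Without the NaClO4-grown mutant replicate 1 the adjusted p was 0.189 for TPK3, 0.212 for ANB1, 0.0993 for SSZ1 and 0.292 for EGD1. Without NaClO4-grown WT replicate 1 the adjusted p was 0.0886 for TPK3, 0.0961 for ANB1, 0.181 for NAT5 and 0.0924 for SSZ1. Without NaClO4-grown WT replicate 2 the adjusted p was 0.0615 for TPK3, 0.0997 for ANB1 and 0.157 for EGD1. Scaled by library totals, the adjusted p was 0.0667 for YAK1, 0.0627 for ANB1, 0.140 for SSZ1 and 0.149 for EGD1. Without limma's variance trend, the adjusted p was 0.0725 for NAT5 and 0.0636 for EGD1. With DESeq2 the adjusted p was 0.125 for ANB1.

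**Figure D3:**
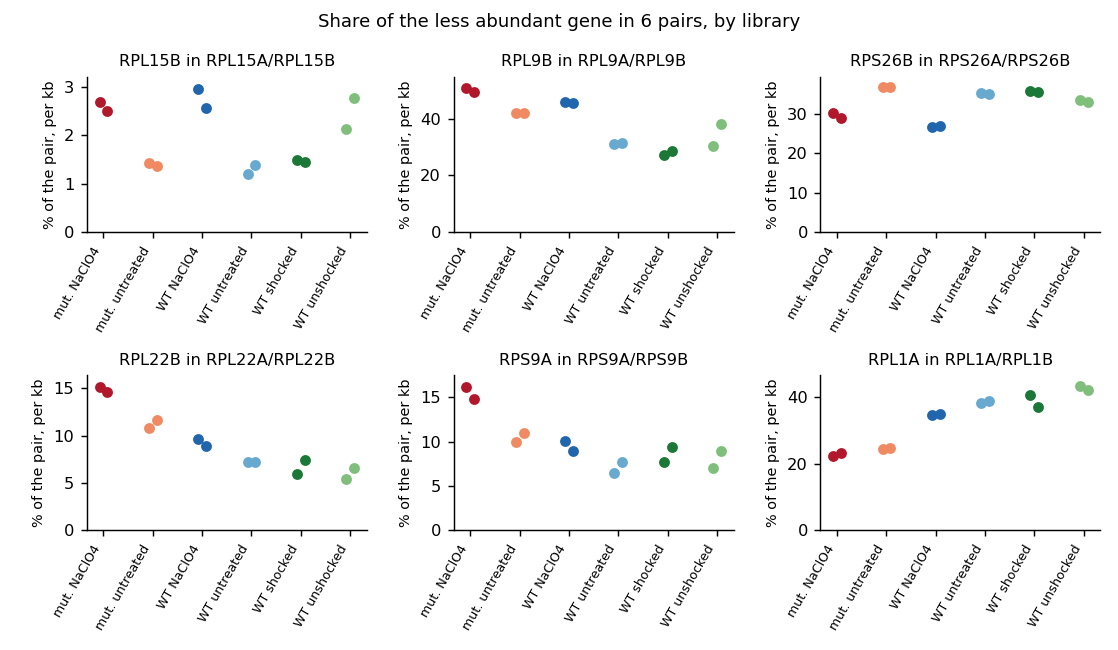
Share of the less abundant gene of 6 pairs in percent of the pair's reads per kb of coding sequence (vertical axes, each from 0), with 1 point per library in 6 groups of 2. RPL15B reaches 2.50 to 2.97% in the NaClO4-grown groups against 1.20 to 1.44% in the untreated groups. Unshocked WT, which had no salt, is at 2.13 and 2.78% and overlaps the salt-grown range, and shocked WT is at 1.48 and 1.46%. RPL22B and RPS9A are higher in the mutant groups than in WT of the same treatment, and RPL1A is lower there.

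After the shock wave and regrowth the family was higher. Of the 135 genes 100 rose in shocked relative to unshocked WT, where 18.1% of all transcripts tested rose, 1 fell (RPL15B), where 17.3% of all fell, and 34 did not pass. The median log2 fold change was 0.49, against 0.00 over all transcripts, and for 134 genes both shocked libraries lay above both unshocked ones, against 36.8% of all. For 1 gene (RPL15B) they lay below, against 36.7%. The large and small subunits gave 60 of 76 and 40 of 54 risers. Genes with an intron rose in 81 of 89 cases (median 0.51) and genes without one in 19 of 46 (median 0.44), and 51 of the 58 less abundant genes of a pair rose against 42 of the 58 more abundant ones. These counts were not tested against each other, and they hold for limma's calls. The median was 0.52 for the less abundant genes and 0.48 for the more abundant ones. DESeq2 called 129 of the 135 members higher, where it called 17.3% of all transcripts higher. Scaled by library totals, 124 members rose, where 15.8% of all transcripts did. RPL22B had 1101 and 1522 normalized reads in shocked WT, compared with 776 and 760.1 for unshocked WT, a change of 0.75 ± 0.16 (SE, adjusted p = 0.0134). RPL14B, which encodes eL14, had 8857 and 9174 normalized reads in shocked WT, compared with 5825 and 4939.9 for unshocked WT, a change of 0.75 ± 0.11 (SE, adjusted p = 0.00394). RPS14B, which encodes uS11, had 4027 and 4051 normalized reads in shocked WT, compared with 2594 and 2303 for unshocked WT, a change of 0.72 ± 0.09 (SE, adjusted p = 0.00245). In each of these genes the shocked libraries lay above the unshocked ones without overlap. RPS17B, which encodes eS17, at 0.72 ± 0.12 (adjusted p = 0.00605) and RPL6B, which encodes eL6, at 0.68 ± 0.12 (adjusted p = 0.00870) completed the 5 largest rises. The stalk genes, at 0.31 ± 0.20 for RPP0, 0.45 ± 0.14 for RPP1A, 0.46 ± 0.15 for RPP1B, 0.46 ± 0.15 for RPP2A and 0.41 ± 0.14 for RPP2B, did not pass (adjusted p = 0.0519 to 0.267). How many members were called depended on which library was left out. The family's median was 0.48 without shocked WT replicate 1 and 0.50 without replicate 2. It was 0.63 without unshocked WT replicate 1 and 0.36 without unshocked WT replicate 2.

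After the shock the A to B ratio changed in 1 of 58 pairs, RPL15A/RPL15B, where 24.4% of 521 paralog pairs of the genome changed. RPL15B had 637 and 637 normalized reads in shocked WT, compared with 756 and 814 for unshocked WT, a fall of 0.30 ± 0.09 (adjusted p = 0.0469), while RPL15A stood at 0.44 ± 0.16 (adjusted p = 0.0686). The share of RPL15B was 1.48 and 1.46% in shocked WT, compared with 2.13 and 2.78% in unshocked WT, and the ratio changed by 0.74 ± 0.16 (SE; adjusted p = 0.0322), opposite in sign to both salt comparisons. The share in unshocked WT, without salt, overlapped that of NaClO4-grown WT at 2.97 and 2.57%. The calls of the RPL15 ratio, RPL15B and RPL22B after shock depended on single libraries. Those of the RPL15 ratio and RPL15B ended whichever library was left out. Without shocked WT replicate 1 the changes were 0.75 for RPL15A/RPL15B and -0.3 for RPL15B. Without shocked WT replicate 2 the adjusted p was 0.0782 for RPL15A/RPL15B and 0.0929 for RPL15B. Without unshocked WT replicate 1 the adjusted p was 0.0813 for RPL15A/RPL15B, 0.139 for RPL15B and 0.119 for RPL22B. Without unshocked WT replicate 2 the adjusted p was 0.140 for RPL15A/RPL15B, 0.243 for RPL15B and 0.123 for RPL22B. On a scale of library totals, the adjusted p was 0.0761 for RPL15B. In limma without a variance trend, the adjusted p was 0.0640 for RPL15B. With DESeq2 the adjusted p was 0.112 for RPL15B. Without the filter on low values the adjusted p was 0.0520 for RPL15B. The counts of the gene lists stand beside 18.1% of all transcripts that rose and 17.3% that fell. Chaperones and escorts of ribosomal proteins rose in 9 of 10 cases, with a median of 1.02. SYO1 had 995 and 1490.3 normalized reads in shocked WT, against 303 and 440.4 in unshocked WT, a change of 1.73 ± 0.24 (adjusted p = 0.00337), TSR2 was at 1.30 ± 0.18 (adjusted p = 0.00324) and RRB1, the chaperone of uL3, at 1.13 ± 0.09 (adjusted p = 8.51e-04). Of the regulators 4 of 19 rose (IFH1, FHL1, RAS1 and TPK3) and 6 fell, among them the protein kinase A gene TPK2 at -1.01 ± 0.16 and the corepressor CRF1 at -0.97 ± 0.27. Of 11 elongation factor genes 3 rose, YEF3 at 0.64 ± 0.19, TEF4 at 0.58 ± 0.15 and EFB1 at 0.49 ± 0.13, and of 12 ribosome-associated factors 3 rose, SSZ1 at 0.52 ± 0.10 and ZUO1 at 0.50 ± 0.12, which form a complex at the tunnel exit, and NAT5 at 0.40 ± 0.10. When 1 library was left out, calls of these genes ended: without unshocked WT replicate 1 the adjusted p was 0.0864 for TPK2, 0.138 for CRF1, 0.0528 for SYO1, 0.0624 for TSR2 and 0.0878 for NAT5. Without unshocked WT replicate 2 the adjusted p was 0.0759 for TPK2, 0.235 for CRF1, 0.0611 for YEF3, 0.0804 for TEF4, 0.0641 for EFB1, 0.0641 for TSR2, 0.0624 for SSZ1, 0.0858 for ZUO1 and 0.177 for NAT5. Without shocked WT replicate 2 the adjusted p was 0.0736 for CRF1, 0.186 for YEF3, 0.0621 for TEF4 and 0.121 for EFB1. Without shocked WT replicate 1 the adjusted p was 0.248 for YEF3, 0.104 for TEF4, 0.0831 for EFB1 and 0.0595 for NAT5. Fitted without a variance trend, the adjusted p was 0.0525 for CRF1. Without the filter on low values the adjusted p was 0.0594 for YEF3.

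**Figure D4:**
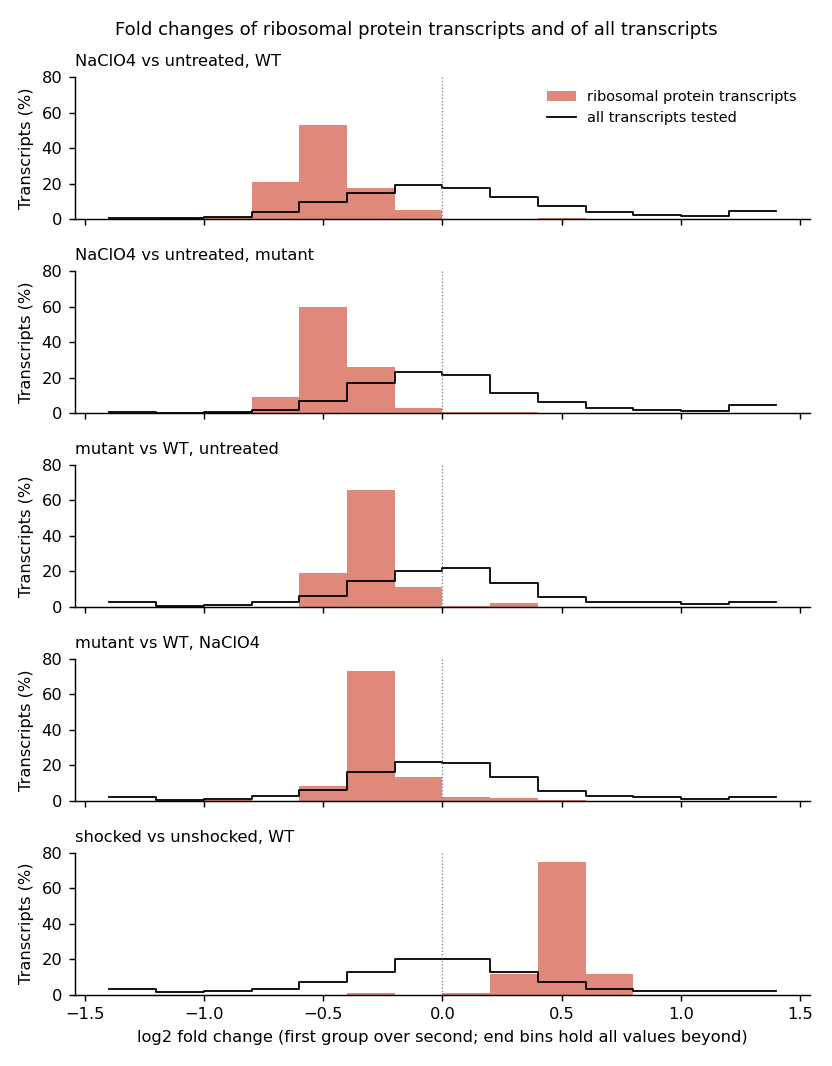
Distribution of log2 fold changes (horizontal axis, first group over second) in 5 comparisons, in percent of transcripts per bin (vertical axis), for 135 ribosomal protein transcripts (filled bars) and all transcripts tested (black line); the end bins hold all values beyond. The family forms a narrow peak below 0 in the salt and strain comparisons, with medians of -0.51, -0.46, -0.33 and -0.31, and above 0 after shock, with a median of 0.49.

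The 2 salt comparisons use different libraries, and 87 of the 135 genes fell in both. Of these, 68 also rose after shock. Of all transcripts 12.1% fell in NaClO4-grown WT, 15.7% fell in the NaClO4-grown mutant and 18.1% rose after shock. How many of all transcripts showed these patterns together, or those across comparisons given below, was not counted. The strain comparisons reuse the libraries of the salt comparisons, so their values are only set side by side here. In all 4 salt and strain comparisons 9 genes were lower: RPL1A (uncertain), RPL7A, RPL13A, RPL22A, RPL34B, RPS0B, RPS1B, RPS4A and RPS11A. RPL9A had log2 fold changes of -0.99 in NaClO4-grown over untreated WT, -0.69 in the NaClO4-grown over the untreated mutant, -0.56 between the untreated strains, -0.28 between the strains in NaClO4 and 0.61 after shock. RPL9B, its counterpart, had -0.08 in NaClO4-grown over untreated WT, -0.21 in the NaClO4-grown over the untreated mutant, 0.13 between the untreated strains, -0.02 between the strains in NaClO4 and 0.19 after shock, and passed in no comparison. RPL41A, RPL41B (both uncertain) and RPP1A were the other genes called in no comparison. RPL41A had -0.05 in NaClO4-grown over untreated WT, -0.13 in the NaClO4-grown over the untreated mutant, -0.09 between the untreated strains, -0.20 between the strains in NaClO4 and 0.24 after shock. The most abundant pair of the family was thus among the genes that passed nowhere, although RPL41B reached 0.32 ± 0.11 (adjusted p = 0.0665) after shock. RPL15B, the rarest member, had 0.52 in NaClO4-grown over untreated WT, 0.30 in the NaClO4-grown over the untreated mutant, -0.12 between the untreated strains, -0.37 between the strains in NaClO4 and -0.30 after shock, opposite in sign to the family's median in the salt and shock comparisons. RPS26B had -0.86 in NaClO4-grown over untreated WT, -0.80 in the NaClO4-grown over the untreated mutant, -0.22 between the untreated strains, -0.18 between the strains in NaClO4 and 0.56 after shock. Members with a match to the Rap1 letters upstream had a median of -0.55 in NaClO4-grown WT (36 of 54 fell) and 0.51 after shock (47 of 54 rose), and those without one -0.50 (52 of 81 fell) and 0.48 (53 of 81 rose), a description without a test.

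**Figure D5:**
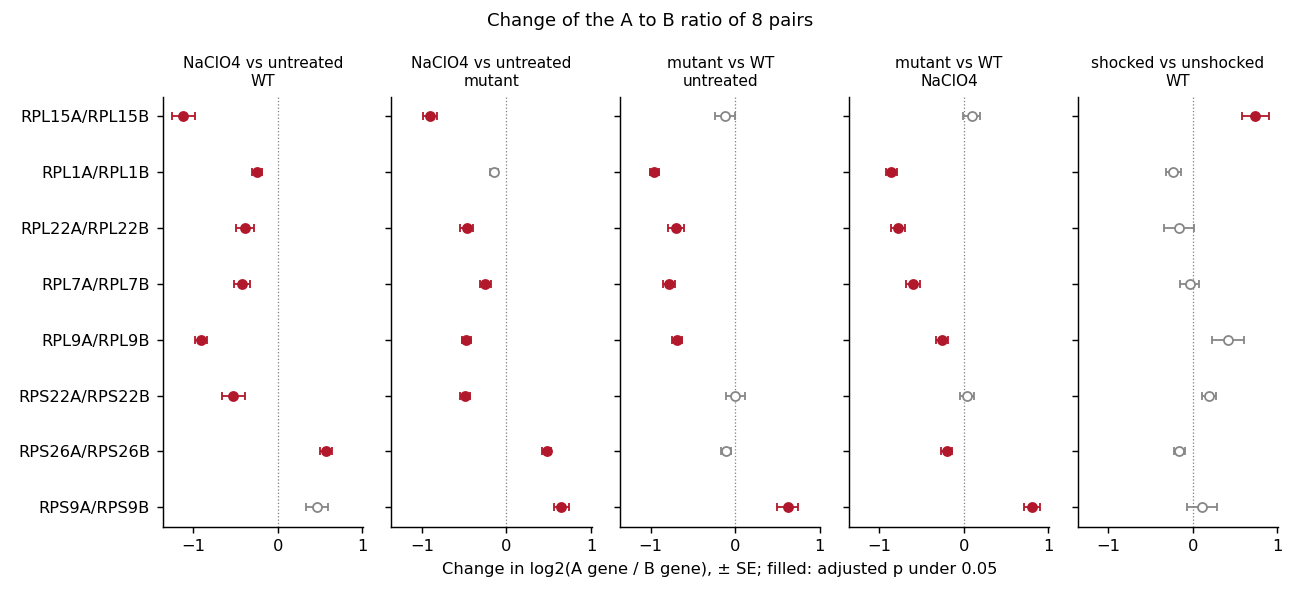
Change in the log2 ratio of the A to the B gene (horizontal axis, ± SE) of 8 pairs (rows) in 5 comparisons of 2 against 2 libraries (columns), with filled points where the adjusted p was under 0.05. The RPL15A/RPL15B ratio is at -1.11 and -0.91 in the salt comparisons and 0.74 after shock, and those of RPL22A/RPL22B, RPL7A/RPL7B and RPL1A/RPL1B are below 0 in both strain comparisons, at -0.61 to -0.96.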

How the data were processed

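How reads were counted, on which strand and against which build were points not given in the sources used here. Reads were checked, trimmed and aligned with FastQC, Trim Galore and HISAT2, per the submitters' processing notes, and the library kit was directional, per the labels' protocols. The values are a signal, normalized read counts that the authors deposited in 5 tables after scaling with DESeq2 1.34.0, per the file headers. Dividing by the step of each column recovered whole reads for 100.0% of values within 0.01 reads, and the 14110933 to 18363356 reads per library set the depth. Transcripts were matched to RefSeq R64 by accession (5944) or locus tag (26).

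In each table log2(normalized read count + 1) of transcripts with a mean of at least 10 was fitted with limma 3.58.1 (R 4.3.3, variance trend), and calls were made at a Benjamini-Hochberg adjusted p under 0.05 over all transcripts. Fold changes are on that scale and understate changes of low genes. Paralog pairs were reciprocal best blastp 2.17.0 hits with at least 40% identity over at least 70% of both proteins, and their log2 ratios were fitted in the same way over all pairs of the genome. The genes named are the 5 largest called changes in each direction with a mean of at least 50, the 5 largest called ratio changes with their genes, the stalk genes, and up to 3 genes of each list. Members of counts of 5 or fewer and genes shown side by side were also named, after their values were seen. A few genes that these rules name are not reported here. Members and the 4 gene lists were chosen with earlier results of these data known. edgeR 4.0.16 and DESeq2 1.42.0 on recovered reads, other scalings, pseudocounts, filters, a replicate block and leaving out each library were alternatives. Replicates differed by more than sampling noise, with a chi-square per degree of freedom of 16.9 to 38.2 over all transcripts. Over the 135 members it was 69.3 in untreated WT, 39.8 in NaClO4-grown WT and 30.8 in the NaClO4-grown mutant. It was 15.3 in the untreated mutant, 17.9 in unshocked WT and 18.5 in shocked WT. The scripts were tested on simulated data.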

Additional observations from a re-analysis of the deposited data

Results flagged for a closer look

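The A to B ratio of RPL9, the genes of uL6, responded to NaClO4 differently in the mutant and in WT by the interaction test. The log2 ratio of RPL9A to RPL9B changed by -0.48 ± 0.05 in the mutant and by -0.90 ± 0.07 in WT (SE, 2 libraries a group), a difference of 0.4282 ± 0.08 (limma, adjusted p = 0.0367). The difference was 0.39 to 0.47 without single libraries, but the call ended without any 1 of 7 of the 8 libraries (adjusted p = 0.0524 to 0.176) and without limma's variance trend (adjusted p = 0.0790).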

How the results depend on the processing

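Of 158 counts of called members or pairs recomputed under other settings, 115 stayed within 1.5 times the reported count, and of 2290 recomputed values of named genes and pairs 1972 kept direction and call, 202 lost the call, 79 gained it, 3 moved and 34 changed sign. Without a variance trend in limma, 55 members were called for NaClO4 in WT (54 lower, or 40%, where 8.52% of all transcripts were lower). For the untreated strains 9 members were called, all lower (6.67%, against 8.645% of all). For the strains in NaClO4 6 were called, 4 lower (2.96%, against 13.55% of all) and 2 higher (1.48%, against 14.7%). In both strain comparisons these shares were below those of all transcripts. Called pairs numbered 4 for NaClO4 in WT, 10 for NaClO4 in the mutant and 0 for the interaction. In the interaction 2 pairs had an unadjusted p under 0.05 in limma without the trend, against 3 with it. Scaled by library totals, 12 members were called for the untreated strains and 5 for the strains in NaClO4, and DESeq2 called 50 for the strains in NaClO4. With the replicate number as a block, 116 members were called for the untreated strains (113 lower, or 83.7%, where 22.2% of all transcripts were lower), 129 members (126 lower, or 93.3%, where 29.3% of all were) and 21 pairs for the strains in NaClO4 and 2 pairs for the interaction. The labels do not say that equal replicate numbers pair libraries, each group has 2 numbers, and the deviations of equal-numbered libraries correlated over transcripts at 0.287, 0.119, 0.508, 0.371 and 0.232 in the 5 comparisons. Leaving out each library in turn gave 9 to 107 for NaClO4 in WT, 72 to 130 for NaClO4 in the mutant, 2 to 99 for the untreated strains, 4 to 45 for the strains in NaClO4, 9 to 122 for shock and 0 for the interaction as counts of members, and 0 to 12 for NaClO4 in WT, 7 to 13 for NaClO4 in the mutant, 1 to 10 for the untreated strains, 5 to 10 for the strains in NaClO4, 0 for shock and 0 to 1 for the interaction as counts of pairs. Some values changed sign. With library totals RPL9B was 0.0432 for NaClO4 in WT, RPL1B 0.0504 for the untreated strains and 0.0232 for the strains in NaClO4, and, for the interaction, RPP1A -0.0252 and RPP2B -0.0336, with RPP2B also -0.0063 in edgeR and -0.0002 with TMM scaling. Without single libraries the ranges of such values were -0.1882 to 0.0233 for RPL9B (NaClO4 in WT), -0.3167 to 0.0044 for RPS22B (NaClO4 in WT), -0.0860 to 0.2344 for RPS9A (NaClO4 in the mutant), -0.2665 to 0.0320 for RPL1B (the untreated strains), -0.0905 to 0.2739 for RPL18B (the strains in NaClO4), -0.3584 to 0.0971 for RPL1B (the strains in NaClO4), -0.1653 to 0.0914 for RPP0 (the interaction), -0.1705 to 0.1888 for RPP1A (the interaction), -0.1960 to 0.2653 for RPP1B (the interaction), -0.1868 to 0.2928 for RPP2A (the interaction) and -0.2031 to 0.2046 for RPP2B (the interaction). For all of these the cause was not tested. With 2 libraries a group, tests rest on few degrees of freedom shared across transcripts, and calls near the threshold depend on single libraries. In nearly identical pairs, reads that match both genes cannot be assigned to 1 gene. When a group was left with 1 library, that library was assumed to vary like the others. The number of all transcripts called changed in those fits too, so their counts do not set the family apart from other transcripts.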
